A study of Mus musculus with 8 samples.

Results

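The genes examined here were 7 genes of nicotinamide adenine dinucleotide (NAD) metabolism, 4 that encode NAD synthesis enzymes (Nampt, Naprt, Nmnat1 and Nadsyn1) and 3 that encode sirtuins (Sirt1, Sirt3 and Sirt6), out of 14247 genes in the expression table. They were taken by name, because NAD salvage and the sirtuins are tied to the circadian clock through Nampt; the rule used no measured value, but earlier results of these data were known when the genes were chosen. RNA was sequenced from the colonic epithelium of wild-type mice at 0, 6, 12 and 18 h of zeitgeber time (ZT), counted from lights on, so that lights go off at ZT12, with 2 libraries at each of the 4 time points and 8 in all. The methods describe mice on a C57BL/6 background, a few months of age and kept in equal periods of light and dark, whose crypts were released from the colon with EDTA. The labels name no treatment, and the time of collection is the only difference between groups that they give. The study describes more mice for each time point than there are libraries here. The labels do not say whether a library came from 1 mouse or from pooled mice, so p-values measure the spread between these libraries, which may be partly technical.

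NAD is both a carrier of electrons and a substrate that sirtuins, poly(ADP-ribose) polymerases and CD38 consume, releasing nicotinamide. Cells rebuild NAD from nicotinamide by the salvage pathway, in which NAMPT makes nicotinamide mononucleotide in the rate-limiting step and NMNAT enzymes join it to an adenylyl group. Nicotinic acid enters through NAPRT, and NADSYN1 carries out the last, amidating step of that route. In liver and in cultured fibroblasts, the clock activators CLOCK and BMAL1 drive Nampt through E-boxes, and the deacetylase SIRT1 acts back on the clock, which is the loop that makes a daily rhythm of these transcripts of interest in the colon.

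All 7 genes were measured in every library, and none passed a test for a change over the day after adjustment over all genes. The sequences in front of their start sites were searched for short motifs, among them the E-box of the clock. RefSeq promoters of build GRCm38.p6, running from 250 bases before to 50 bases after a start site, matched 6 of the 7 genes with 9 promoters in all; Naprt had no entry. The E-box of the clock activators was searched as CACGTG, which reads the same on both strands. It was in 1 of the 9 promoters, that of Sirt1, which held 2 copies, 115 and 43 bases before the start, and it was in 7.15% of all 32851 promoters of that length. The motif AGGTCA, the half-site bound by the nuclear receptors of the REV-ERB and ROR families, was searched on both strands and was in the promoter of Nampt alone, 151 bases before the start, against 16.3% of all promoters. The D-box TTATGTAA, bound by DBP and its relatives, was in 0 of the 9 promoters and in 0.938% of all promoters. The GC-box GGGCGG was in 7 of the 9 promoters, against 35.7% of all promoters. It was in at least 1 promoter of each of the 6 genes, with 5 copies in Nampt and 7 in Sirt1. The Nmnat1 promoters overlap each other and hold the same copy. The 9 promoters were 57.3% to 79% GC, beside a median of 52.7% over all promoters. These matches describe the letters in a window of 300 bases and do not show that a factor binds there. Sequence outside the windows, such as that around the outer start of the annotated Nampt gene, was not searched. An E-box of Nampt outside its window would thus be missed. The promoters of Sirt1 and Nampt are shown because they hold the E-boxes and the AGGTCA half-site. The half-site was searched as these letters alone, without the bases beside it. In Sirt1 the capitals mark the E-boxes, and in Nampt they mark the AGGTCA half-site. The Sirt1 promoter lies at chr10:63338986-63339285 on the minus strand and the Nampt promoter at chr12:32820085-32820384 on the plus strand, and both are written 5′ to 3′. Both lie inside the annotated gene spans given below, so their RefSeq starts are not the outer starts of those spans.
Sirt1: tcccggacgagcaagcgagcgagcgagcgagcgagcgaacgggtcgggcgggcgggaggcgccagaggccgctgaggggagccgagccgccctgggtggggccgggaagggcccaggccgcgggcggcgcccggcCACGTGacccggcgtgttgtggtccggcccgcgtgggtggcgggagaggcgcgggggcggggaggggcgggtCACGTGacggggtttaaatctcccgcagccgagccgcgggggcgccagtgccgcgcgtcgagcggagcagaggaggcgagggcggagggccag
Nampt: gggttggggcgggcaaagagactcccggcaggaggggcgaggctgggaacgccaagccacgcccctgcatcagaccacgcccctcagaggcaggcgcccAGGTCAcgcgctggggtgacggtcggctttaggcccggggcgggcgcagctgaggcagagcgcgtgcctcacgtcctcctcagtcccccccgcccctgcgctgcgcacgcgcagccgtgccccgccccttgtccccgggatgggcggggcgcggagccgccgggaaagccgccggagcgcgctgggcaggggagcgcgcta

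Libraries held between 14722342 and 25159440 reads assigned to genes, and the lowest read count of any of the 7 genes was 144, for Nmnat1 in ZT6 replicate 1. Counting error at the lowest count was between 3.07% for Nampt and 8.33% for Nmnat1, whereas the median coefficient of variation between replicates was between 7.19% for Naprt and 21.3% for Nmnat1. The summed level of the 8 epithelial markers was 234399 to 317202 normalised counts per library, 1.35-fold between the lowest and the highest. All 8 were in the table, but so were all 7 T cell markers, so presence alone does not bear on the epithelial label. ZT0 replicate 2 stood apart in summed markers of B and plasma cells (2126 normalised counts against 39.7 to 452 in the other libraries) and of myeloid cells (1269 against 23.8 to 422). ZT12 replicate 1 stood apart in markers of smooth muscle (3672 against at most 229) and fibroblasts (2329 against at most 648). ZT18 replicate 1 had the highest summed goblet markers (507292 against at most 368314). Its stem and proliferating markers were the lowest (5191.5 against at least 5633). It also had the most genes at 0, 769 against at most 462, although it had the most reads. The mitochondrial genome took 12.2% and 19.8% of the normalised counts in replicates 1 and 2 of ZT0, 19.2% and 19.4% of ZT6, 6.68% and 7.85% of ZT12, and 22.2% and 9.80% of ZT18, so that both ZT12 libraries were below all others. In bulk RNA, fewer cells of a type and less RNA per cell cannot be told apart.

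Nampt, the rate-limiting salvage enzyme, lies on chromosome 12 (GRCm38, 32819545 to 32853349, plus strand). Its normalised counts were 1051 and 1598 (ZT0), 1429 and 1492 (ZT6), 1676 and 1651 (ZT12), and 1758 and 2138 (ZT18), with replicate 1 given first here and for the other genes. Both ZT18 libraries were above all others, and the libraries of ZT0 spanned those of ZT6. The mean rose at each step, from 1324 ± 387 (SD, n = 2) at ZT0 through 1460.3 ± 44.1 and 1663 ± 17.7 to 1948 ± 269 at ZT18, an order that no other of the 7 genes had and that 474 genes, 3.51% of those tested, shared. The highest mean was 1.47 times the lowest, while the ZT0 replicates differed by 1.52-fold. On the scale of log2(normalised count + 1), used for all differences here, ZT18 exceeded ZT0 by 0.58 (SE 0.22, 95% interval 0.09 to 1.07). The unadjusted p in limma was 0.0243 and the value adjusted over all genes by the Benjamini-Hochberg method was 0.962. This was the only one of 42 intervals (7 genes, 6 contrasts) that left out 0, and 5.02% of all genes had an unadjusted p under 0.05 in that contrast. The difference rested on the spread at ZT0: it was 0.28 without ZT0 replicate 1 and 0.88 without ZT0 replicate 2, the library with the high immune markers. Without ZT18 replicate 2 it was 0.44. The unadjusted limma p rose above 0.05, so that the interval held 0, without ZT0 replicate 1 (0.210), without ZT18 replicate 2 (0.121), with scaling outside the mitochondrial genome (0.0688) and without the mean-variance trend (0.0580). The part of these markers in the Nampt value was not tested.

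Naprt, on chromosome 15 (75890956 to 75894481, minus strand), starts NAD synthesis from nicotinic acid. Its normalised counts were 1318 and 1581 (ZT0), 1469 and 1458 (ZT6), 1163 and 1189 (ZT12), and 1666 and 1371 (ZT18). Both ZT12 libraries were below all others, with a mean of 1176 ± 18.2 (SD, n = 2) against 1449.5 ± 186 at ZT0, 1463 ± 7.62 at ZT6 and 1519 ± 208 at ZT18. Naprt was the only one of the 7 genes whose fold between the highest and the lowest time point (1.29) exceeded its largest fold between replicates (1.22). The share of all genes for which this holds was not computed, so it is not a result about Naprt. ZT12 was below ZT0 by a log2 difference of -0.30 (95% interval -0.69 to 0.10, adjusted p = 0.588 in limma), and ZT18 was above ZT12 by 0.36 (-0.03 to 0.76, adjusted p = 0.571). Without ZT0 replicate 2 the difference between ZT12 and ZT0 was -0.16, and without ZT18 replicate 1 that between ZT18 and ZT12 was 0.22. The ZT12 libraries were also those with the smallest mitochondrial shares; with scaling outside the mitochondrial genome the differences were -0.33 and 0.31.

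Nmnat1 encodes the nuclear NMNAT and lies on chromosome 4 (149467572 to 149485202, minus strand). It had 198 and 199 normalised counts in the ZT0 libraries, 177 and 295 (ZT6), 186 and 252 (ZT12), and 286 and 212 (ZT18). The replicates of ZT6 differed by 1.66-fold, more than the 1.26-fold between the highest and the lowest time point mean, and the libraries of ZT6, ZT12 and ZT18 overlapped. Its log2 differences were 0.13 for ZT12 against ZT0 (95% interval -0.59 to 0.85) and 0.10 for ZT18 against ZT6 (-0.61 to 0.82), and each changed sign when 1 library was left out.

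Nadsyn1, the glutamine-dependent NAD synthetase, lies on chromosome 7 (143795584 to 143822849, minus strand). Its normalised counts were 862 and 993 (ZT0), 1061 and 1045 (ZT6), 1067 and 953 (ZT12), and 848 and 1008 (ZT18). It was the steadiest of the 7 genes over the day, with a fold of 1.14 between the highest and the lowest time point mean. Both ZT6 libraries were above both ZT18 libraries, and libraries of these time points did not overlap for 38% of all genes. The log2 difference for ZT18 against ZT6 was -0.19 (95% interval -0.59 to 0.21, adjusted p = 0.899 in limma). It was -0.06 without ZT18 replicate 1 and -0.31 without ZT18 replicate 2.

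**Figure D1:**
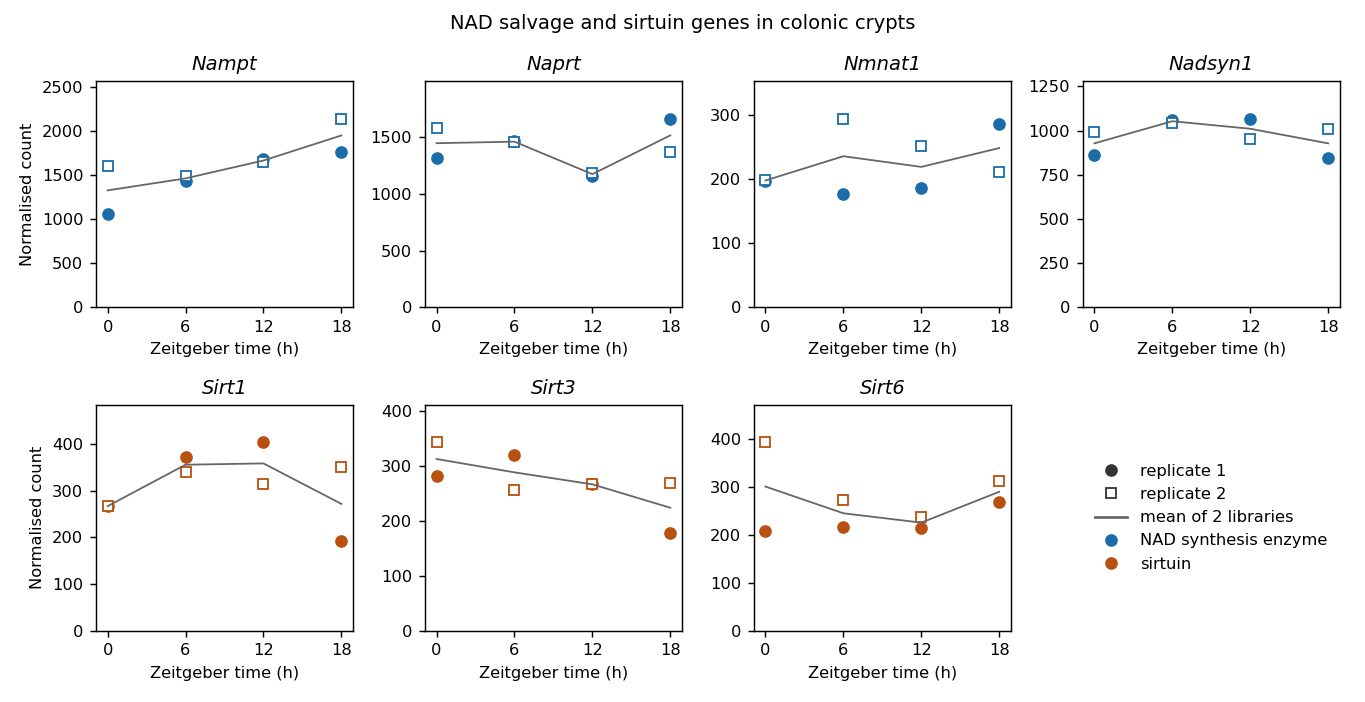
Normalised counts of the 7 genes (y axis, from 0) against zeitgeber time in hours (x axis), with filled circles for replicate 1, open squares for replicate 2 and a line through the mean of the 2 libraries of each time point. The Nampt line climbs from 1324 at ZT0 to 1948 at ZT18, Naprt dips to 1176 at ZT12, and for the other genes the distance between replicates at some time point is larger than the distance between the time point means.

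Among the sirtuins, Sirt1 encodes a nuclear deacetylase that acts on histones and transcription factors and lies on chromosome 10 (63319005 to 63381704, minus strand). It had 267 and 267 normalised counts in the ZT0 libraries, 372 and 339 (ZT6), 404 and 314 (ZT12), and 193 and 351 (ZT18). All libraries of ZT6 and ZT12 were above those of ZT0, and the replicates of ZT18 lay on both sides of ZT0. The replicates of ZT18 differed by 1.82-fold, against 1.34-fold between the highest and the lowest mean. ZT12 was above ZT0 by 0.41 on the log2 scale (95% interval -0.26 to 1.09, adjusted p = 0.663 in limma), which was 0.23 without ZT12 replicate 1, the library with the smooth muscle and fibroblast markers, and 0.59 without ZT12 replicate 2. ZT18 was below ZT6 by a log2 difference of -0.45 (-1.12 to 0.23, adjusted p = 0.858), which was -0.02 without ZT18 replicate 1 and -0.88 without ZT18 replicate 2.

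Sirt3, the main mitochondrial deacetylase, lies on chromosome 7 (140863666 to 140882309, minus strand). Its normalised counts were 282 and 342 (ZT0), 319 and 257 (ZT6), 266 and 266 (ZT12), and 179 and 269 (ZT18). Its means fell in order from 312 ± 42.6 (SD, n = 2) at ZT0 to 224 ± 63.7 at ZT18, and both ZT18 libraries were below both ZT0 libraries. Libraries of ZT18 and ZT0 did not overlap for 27.5% of all genes. The share of genes whose means fall at each step was not computed. The log2 difference of ZT18 against ZT0 was -0.50 (95% interval -1.12 to 0.11) with an adjusted p of 0.999 in limma, and it became -0.21 when ZT18 replicate 1 was left out and -0.80 when replicate 2 was. The lowest value, as for Sirt1 and Nadsyn1, was in ZT18 replicate 1, the deepest library and the one with the largest mitochondrial share. That library also had the highest goblet markers, the lowest stem and proliferating markers and the most genes at 0. With scaling outside the mitochondrial genome, the Sirt3 difference for ZT18 against ZT0 was -0.59. For ZT18 against ZT6 under that scaling, Sirt1 had -0.49 and Nadsyn1 -0.23. The parts of the mitochondrial share and of cell makeup in these values were not tested.

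Sirt6 encodes a chromatin-bound deacetylase and lies on chromosome 10 (81621785 to 81627797, minus strand). It had 209 and 393 normalised counts in the ZT0 libraries, 217 and 273 (ZT6), 213 and 238 (ZT12), and 268 and 311 (ZT18). Both its lowest and its highest library were at ZT0, 1.88-fold apart, against 1.33-fold between the highest and the lowest time point mean. The highest was ZT0 replicate 2. The log2 difference of ZT12 against ZT0 was -0.34 (95% interval -1.06 to 0.37) and turned to 0.11 without that library. As folds, 6 of the 7 genes, all but Naprt, thus differed more between replicates of some time point than between time point means. The share of all genes that do so was not computed. A fold between single libraries is unlike a fold between means of 2 libraries, so this count is not a result about these genes.

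Levels were compared between genes per kilobase of annotated exon. Naprt was highest, with 598 ± 75.6 normalised counts per kb (SD over 8 libraries), followed by Nampt with 316 ± 61.0 and Nadsyn1 with 296 ± 25.9. Sirt6 had 95.2 ± 22.5, Nmnat1 74.3 ± 15.1, Sirt1 58.8 ± 12.8 and Sirt3 45.6 ± 8.08. The 6 pairs of neighbours in this order were compared within libraries by an exact two-sided sign-flip permutation test over the 8 libraries, whose smallest possible p is 0.00781. Naprt exceeded Nampt in 8 of 8 libraries (1.91-fold, adjusted exact p = 0.0156), and Nadsyn1 exceeded Sirt6 in 8 of 8 (3.17-fold, adjusted exact p = 0.0156). Sirt6 exceeded Nmnat1 in 8 of 8 (1.28-fold, adjusted exact p = 0.0156), and Sirt1 exceeded Sirt3 in 7 of 8 (1.28-fold, adjusted exact p = 0.0352), although the ranges of both pairs overlapped. Nampt and Nadsyn1 did not differ beyond their spread, with Nampt higher in 5 of 8 libraries (adjusted exact p = 0.461), nor did Nmnat1 and Sirt1, with Nmnat1 higher in 6 of 8 (adjusted exact p = 0.113). The transcripts of 3 NAD synthesis enzymes were thus more abundant per length than those of the 3 sirtuins and of Nmnat1 in every library. Exon length is the union of all annotated transcripts, which understates the level of a gene that uses a short transcript. The exact p-values do not measure that error, which is the same in all 8 libraries. The pairs compared also followed the order of these same means.

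**Figure D2:**
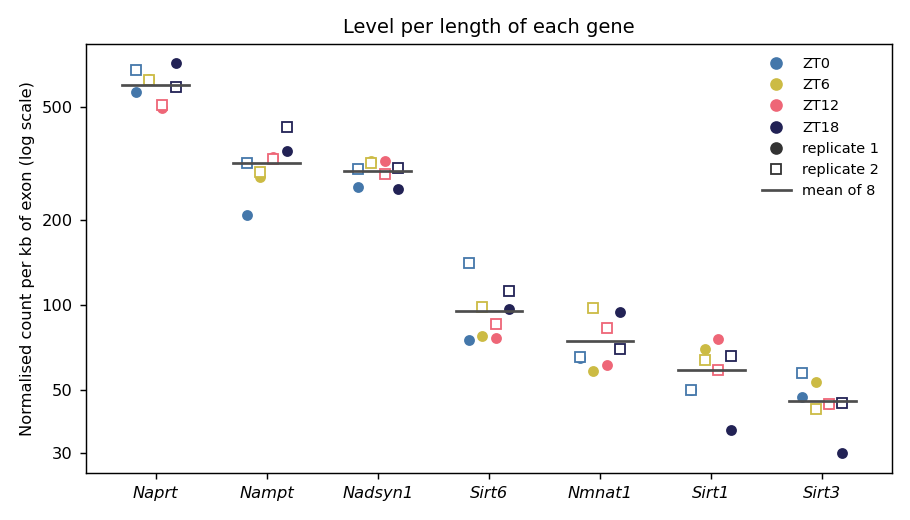
Normalised counts per kb of exon on a log axis (y axis) for the 7 genes in order of their mean (x axis), 1 point per library coloured by time point, with filled circles for replicate 1, open squares for replicate 2 and a bar at the mean of 8 libraries. Naprt, Nampt and Nadsyn1 form an upper group with means of 296 to 598, and Sirt6, Nmnat1, Sirt1 and Sirt3 a lower group with means of 45.6 to 95.2; the groups share no value.

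Whether these genes follow a daily rhythm was asked with a cosine of 24 h fitted to all 8 libraries by limma, whose amplitude is the height of the peak above the mean. None of the 7 genes was called at an adjusted p under 0.05, and the unadjusted p of each was above 0.05 too. Over all 13503 genes tested, 16 genes (0.118%) were called and 9.15% had an unadjusted p under 0.05. The smallest p was that of Nampt, with an amplitude of 0.27 on the log2 scale, a peak at 15.2 h and an adjusted p of 0.586. Sirt1 had the largest amplitude, 0.30 with a peak at 8.84 h and an adjusted p of 0.635. The amplitudes of the others were 0.22 for Sirt3, 0.21 for Sirt6, 0.15 for Naprt, 0.11 for Nadsyn1 and 0.08 for Nmnat1, with adjusted p between 0.727 and 0.956. Leaving out 1 library moved 4 of them by more than 1.5 times: Naprt to 0.24 without ZT0 replicate 1, Sirt3 to 0.12 without ZT18 replicate 1, Sirt6 to 0.39 and 0.12 without replicate 1 or 2 of ZT0, and Nmnat1 to 0.25 without ZT6 replicate 2 and 0.20 and 0.055 without replicate 1 or 2 of ZT12. The median amplitude of the 7 genes was 0.21, beside 0.23 over all genes tested, and 5 of the 7 were below that median. The F-test over the 4 time points called none of the 7 either (adjusted p from 0.727 to 0.937), with 0.0889% of all genes called and 7.03% at an unadjusted p under 0.05, again with none of the 7. In an exact rank test of the order of the libraries against a 24 h wave, Nampt had p = 0.114 for a peak at 15 h, the smallest p that a peak between sampled times can reach, and an adjusted p of 0.877. The other genes had exact rank p between 0.457 and 1. The smallest p for a peak at a sampled time is 0.0190, so with 2 libraries per time point this test could hardly pass an adjustment over 13503 genes, and the absence of calls in it carries no information. An unadjusted exact p under 0.05 was reached by 278 genes.

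Differences between pairs of time points were estimated in the same limma fit. None of the 7 genes was called for ZT12 against ZT0 (0.0667% of all genes called) or for ZT18 against ZT6 (0.0444%), the pairs of time points 12 h apart. None was called for ZT6 against ZT0 (0.0444%), ZT12 against ZT6 (0%), ZT18 against ZT12 (0.0296%) or ZT18 against ZT0 (0%). For the 2 contrasts with no call, ZT12 against ZT6 had 915 genes and ZT18 against ZT0 had 678 genes at an unadjusted p under 0.05. In edgeR on recovered reads, 0 genes were called for either contrast, and in DESeq2 44 and 56; none of the 7 was called by either tool in any test. Standard errors of the log2 differences were between 0.17 for Naprt and 0.32 for Nmnat1, and the interval for ZT12 against ZT0 reached up to 1.44-fold for Nadsyn1 and 2.13-fold for Sirt1. The ZT12 and ZT0 libraries did not overlap for 4 of the 7 genes (Nampt and Sirt1 higher at ZT12, Naprt and Sirt3 lower), beside 41.1% of all genes. They did not overlap for 2 genes between ZT18 and ZT6 (Nampt higher at ZT18, Nadsyn1 lower), beside 38% of all genes, and for 3 genes between ZT18 and ZT0 (Nampt and Nmnat1 higher at ZT18, Sirt3 lower), beside 27.5%. The median log2 difference of the 7 genes for ZT12 against ZT0 was 0.12, beside 0.01 over all genes, and for ZT18 against ZT6 it was 0.05, beside -0.01.

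**Figure D3:**
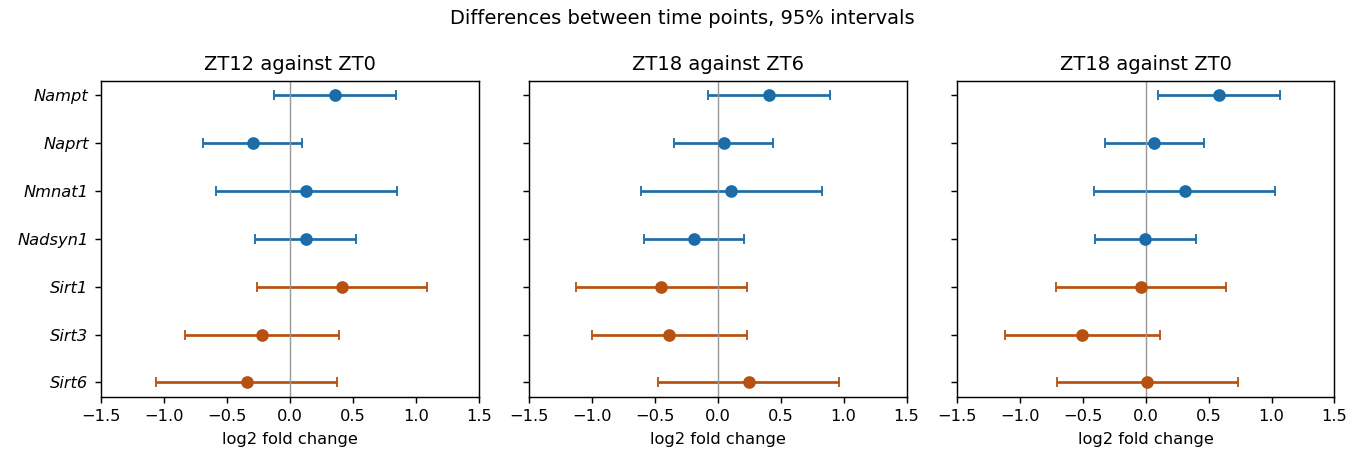
Log2 difference between time points (x axis) for the 7 genes (y axis), with points for the estimate and bars for the 95% interval from the limma fit; NAD synthesis enzymes are blue and sirtuins orange. Of the intervals shown, that of Nampt for ZT18 against ZT0 (0.09 to 1.07) leaves out 0, before adjustment over all genes.

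The same libraries carried strong rhythms of clock genes, which gives the scale of these values. Dbp, a clock-driven transcription factor, had an amplitude of 3.07 on the log2 scale with a peak at 10.6 h (adjusted p = 4.01e-05 in limma). Nr1d1, which encodes REV-ERB alpha, had 2.17 with a peak at 8.80 h (adjusted p = 0.00238). Arntl, which encodes BMAL1, had 0.92 with a peak at 23.5 h and did not pass the test (adjusted p = 0.0831). Of 13 clock genes, 7 were called in the cosine fit.

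Other genes of NAD metabolism were taken from 4 lists. Of 50 genes listed, 39 were in the table and 36 were tested; 0 were called in the cosine fit, the F-test or any contrast. The cosine fit gave 4 of them an unadjusted p under 0.05 (11.1%, beside 9.15% of all genes), which were Afmid and Kyat1 of the kynurenine pathway and the NAD consumers Parp4 and Cd38; Afmid, Parp4 and Cd38 were named after their values were seen. For ZT12 against ZT0, 21 of the 36 were higher and 15 lower (58.3% higher, beside 51.4% of all genes), and the median amplitude was 0.19.

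All 4 further sirtuins were tested, of which 1 was higher and 3 were lower at ZT12 than at ZT0. Sirt7, the nucleolar sirtuin, had 1791 and 2425 normalised counts at ZT0 and 1308 and 1528 at ZT12, which did not overlap, with a log2 difference of -0.56 (SE 0.20, adjusted p = 0.424 in limma). Libraries of these time points did not overlap for 41.1% of all genes. The mitochondrial sirtuins Sirt4 and Sirt5 had log2 differences of -0.28 and 0.37. Per length, Sirt7 had 363 normalised counts per kb, above the means of Sirt6, Sirt1 and Sirt3 and also above those of Nampt (316) and Nadsyn1 (296).

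Of 20 genes of other NAD synthesis and precursor uptake, 11 were tested. Nmnat2, Nmrk2, Qprt, Kynu, Aadat and Acmsd were not in the table, and Haao, Kmo and Ido2 had means under 10. At ZT12, 8 of the genes tested were above and 3 below their ZT0 mean, which describes those genes alone. Kyat1, a kynurenine aminotransferase, had 1273 and 1661 normalised counts in the ZT0 libraries, 1283 and 819 (ZT6), 2539 and 2252 (ZT12), and 3378 and 1841 (ZT18). The libraries of ZT12 and ZT18 were all above those of ZT0 and ZT6, with log2 differences of 0.72 for ZT12 against ZT0 (adjusted p = 0.498 in limma) and 1.28 for ZT18 against ZT6 (adjusted p = 0.50). Nampt libraries were separated in the same way. The share of all genes so separated was not computed, and Kyat1 was named for its wide range of time point means. Nmrk1, the nicotinamide riboside kinase, had a log2 difference of 0.49 for ZT12 against ZT0 (adjusted p = 0.669). Ido1, which opens the kynurenine pathway, had 1.10 (SE 0.64, adjusted p = 0.578).

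The 16 NAD consumers tested had a median amplitude of 0.18, and 9 of them were higher and 7 lower at ZT12 than at ZT0. Tnks, which encodes tankyrase, had a log2 difference of 0.44 for ZT12 against ZT0 (adjusted p = 0.549 in limma). The mono-ADP-ribosyltransferases Parp11 and Parp14 had 0.02 and 0.25. Among the 5 tested genes of NAD phosphorylation, transport and clearance, Nadk, the cytosolic NAD kinase, had 1240.1 normalised counts per kb and a log2 difference of 0.26 for ZT18 against ZT6 (adjusted p = 0.858). Slc25a51, the mitochondrial NAD carrier, had 0.38 (adjusted p = 0.740), and Nudt12, an NADH hydrolase, had 0.24 (adjusted p = 0.959).

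**Figure D4:**
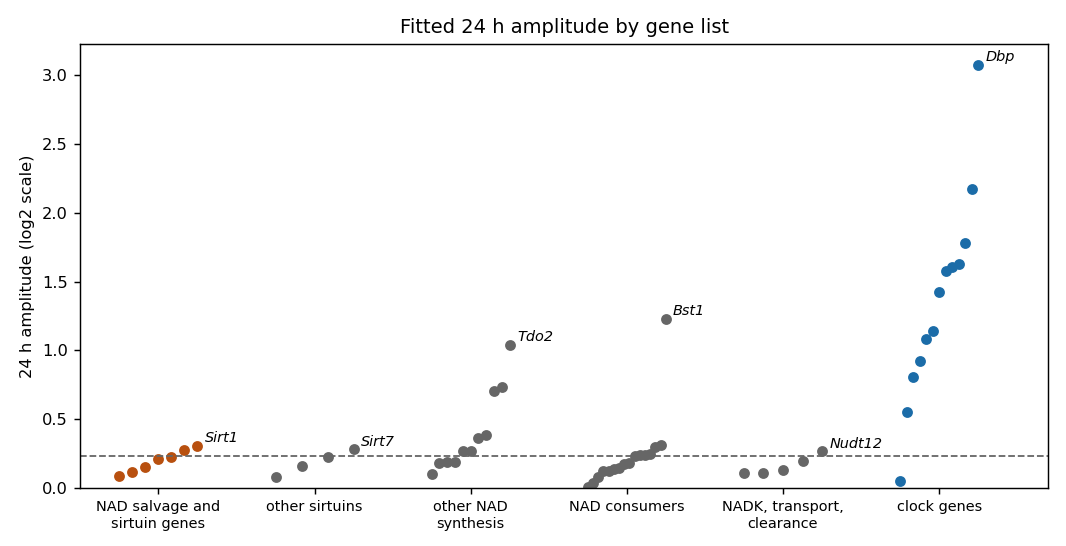
Fitted 24 h amplitude on the log2 scale (y axis) of the genes tested in each list (x axis), 1 point per gene in order of amplitude within the list, with the gene of largest amplitude named and a dashed line at the median of all genes tested (0.23). The 7 NAD salvage and sirtuin genes lie between 0.08 and 0.30, whereas Dbp reaches 3.07; Tdo2 and Bst1, the highest points of their lists, have low counts and did not pass the test.

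The 7 genes did not share a common pattern. Over the 8 libraries, Pearson's r of the log2 values of 2 members was between -0.71 for Nmnat1 and Sirt3 and 0.88 for Nadsyn1 and Sirt1. These are descriptions over 8 points that share library depth and cell makeup. The genes most like Nampt over the 8 libraries were Gtf2a2 (r = 0.98), Arhgap27 (0.97), AW011738 (0.96), Pex11a (0.95) and Pnpla6 (0.94). The genes most like Naprt were Hbs1l, Srp19 and Pidd1 (r of 0.98 each), and those most like Nmnat1 were Iba57 (0.95), Ecsit (0.92) and 1700056E22Rik (0.90). Nadsyn1 was most like Cyp3a44 (0.99), Pparg and Cdk6 (0.98 each). Sirt1 was most like Malt1, Slc23a2 and Mfsd8 (0.96 to 0.97), Sirt3 like Usp11, Zbtb49 and M1ap (0.98 each), and Sirt6 like Gstp1, Acot13 and Ogg1 (0.94 to 0.95). These were the highest of the correlations with 13503 genes.

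Several of the genes have close neighbours, and whether reads were counted by strand is not stated. Exons of Psmd13, on the opposite strand, share 342 bases with those of Sirt3 (5.73% of its exon length), and exons of Ric8a share 418 (7.0%). Psmd13 was 5.43 times and Ric8a 4.21 times as high as Sirt3 in normalised counts, so the Sirt3 values are uncertain. Their correlations with Sirt3 over the 8 libraries were -0.45 and 0.05. Exons of Eef1d share 277 bases with those of Naprt on the same strand (11.8%), its mean was 1.30 times that of Naprt, and r was 0.54. An antisense gene, Gm16145, shares 65 bases with Sirt1 exons and was not analysed here. The starts of Lzic and Nmnat1 lie 27 bases apart on opposite strands, and their levels had r of -0.32. Starts on opposite strands within 1 kb were also those of Psmd13 and Sirt3 (341 bases), Dhcr7 and Nadsyn1 (296 bases, r = 0.49), Dnajc12 and Sirt1 (739 bases, r = 0.14), and Ankrd24 and Sirt6 (743 bases, r = 0.39). These distances are between the outer starts of the annotated genes. For Sirt1 that is base 63381704, which is not the start of the Sirt1 promoter shown above.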

How the data were processed

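RNA of colonic crypts was sequenced in 8 libraries, 2 at each of 4 time points, grouped by their labels, which name no batch. The authors aligned reads with STAR to GRCm38 and used DESeq2; the annotation and the counting step are not given in the sources used here. The labels and the methods of the study name different library kits. The values the authors deposited are a signal per gene, the read count divided by 1 size factor per library (normalised count); all of them were whole multiples of 1 read within 0.01. The deposited mean column is the authors' mean. For a comparison of their own, the authors deposited p-values (raw and adjusted), a score and log2 fold changes with errors, none of which was used.

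Values were transformed to log2(normalised count + 1), which understates changes of low genes, and 13503 genes with a mean of at least 10 were fitted with limma 3.58.1 in R 4.3.3 (lmFit, eBayes with trend, Benjamini-Hochberg adjustment, called under 0.05). All 8 libraries entered 1 fit, giving a 24 h cosine, an F-test and 6 contrasts. The exact rank test stands in for JTK, the method of the study. Alternatives used edgeR 4.0.16 and DESeq2 1.42.0 on recovered reads, other scalings, pseudocounts and filters, a replicate block and left-out libraries. The scripts were tested on simulated data. Gene positions and exon lengths are from GENCODE M21.

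Genes named were the 7 members, list genes called or among the 3 with the widest range of time point means at a mean of at least 50, the 5 (Nampt) or 3 most correlated genes, neighbours within 1 kb or overlapping exons, and 3 clock genes. The members and lists were chosen with earlier results of these data known. Read totals (14722342 to 25159440) bound counting error alone, because copies made in PCR were not marked by molecular identifiers.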

Additional observations from a re-analysis of the deposited data

How the results depend on the processing

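None of the 7 genes was called in the cosine fit, the F-test or a contrast under any of the 20 alternative settings; the smallest adjusted p of any was 0.172. The number of genes called over the whole table did depend on the setting. Without the mean-variance trend, 1 gene was called in the cosine fit, 2 in the F-test, 1 for ZT12 against ZT0 and 1 when ZT18 was set against ZT6, where the reported numbers were 16, 12, 9 and 6. DESeq2 on recovered reads called 189, 217, 135 and 68, and edgeR called 5 for ZT12 against ZT0. Leaving out each library in turn gave 6 to 18 genes in the cosine fit, 1 to 16 in the F-test, 5 to 13 for ZT12 against ZT0 and 0 to 9 when ZT18 was set against ZT6. Without both ZT0 replicate 2 and ZT12 replicate 1, an alternative chosen after seeing the data, the numbers were 10, 1, 2 and 0. With the replicate block they were 12, 8, 9 and 8 in the order cosine, F-test, ZT18 against ZT6 and ZT12 against ZT0, and it changed no call of the 7 genes; libraries of the same number did not deviate together (correlations from -0.29 to 0.22), so they share only a number.

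Of 840 log2 differences of the 7 genes recomputed over the 6 contrasts, 47 changed sign, 35 of them on leaving out 1 or 2 libraries; in the other 12, under other scalings or tools, the reported difference was at most 0.07 in size. The cause was not tested. For ZT18 against ZT0 with scaling outside the mitochondrial genome, Naprt went from 0.07 to -0.025 and Sirt6 from 0.01 to -0.08. For ZT18 against ZT6, Naprt ranged from -0.093 (without ZT18 replicate 1) to 0.19 and Nmnat1 from -0.26 (without ZT6 replicate 1; -0.11 without ZT18 replicate 1) to 0.47. For ZT12 against ZT0, Nmnat1 ranged from -0.088 (without ZT12 replicate 2) to 0.35 and Sirt6 from -0.80 (without ZT0 replicate 1) to 0.11 (without ZT0 replicate 2), or 0.19 without both ZT0 replicate 2 and ZT12 replicate 1. Amplitudes ranged from 0.21 to 0.38 for Nampt, 0.08 to 0.24 for Naprt, 0.055 to 0.25 for Nmnat1, 0.08 to 0.16 for Nadsyn1, 0.21 to 0.44 for Sirt1, 0.12 to 0.31 for Sirt3 and 0.12 to 0.39 for Sirt6. The log2 difference of Nampt for ZT18 against ZT0 ranged from 0.28 to 0.88, with adjusted p from 0.368 to 1.00. It was 0.49 with scaling outside the mitochondrial genome, which moved the median of all genes by at most 0.11, in ZT18 replicate 1.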
